A study of Mus musculus with 6 samples.

Results

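Kruppel-like factors are transcription factors that bind CACCC boxes and GC-rich DNA through a block of C2H2 zinc fingers at the carboxyl end, while the rest of the protein differs between members and decides whether a target is switched on or off. Several of them are immediate early genes of serum, cytokine and stress signals, and as a family they set growth arrest, differentiation and inflammatory tone in endothelium, epithelium, muscle, fat and leukocytes. The genes described here are Klf2, Klf3, Klf4, Klf5, Klf6, Klf7, Klf9, Klf10, Klf11 and Klf13, picked by exact gene symbol from a table of 55453 symbols. All 10 were present and all 10 were among the 14877 genes abundant enough to be tested. The symbols were picked with results of this same comparison known. Their differences between the groups are therefore given as a description, without p values, and adjusted p values are given only for genes outside the list. Those gene lists too were drawn up with results of these data known, so their counts are set beside the share of all tested genes and carry no test of the list.

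Poly(A) RNA was sequenced in 6 libraries whose source is SB28, a line derived from a mouse glioma, with C57BL/6 as the strain. The 3 PP2AcKO libraries carry a PP2A KO genotype label, and the 3 PP2AcWT libraries are labelled wild type. PP2Ac is the catalytic subunit of protein phosphatase 2A. No treatment, time or age is given per library. The series' design text speaks instead of SB28 tumours grown for 18 days in wild-type mice and in mice with floxed PP2Ac and a LysM-driven Cre, which acts in myeloid cells, so the sources differ on which cells carried the deletion, and they do not state how an SB28 knockout would have been made or whether it is 1 clone. Whether the replicates were separate cultures is not stated, so the spread behind each p value is that of the libraries and could be technical.

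Total counts were 40245915 to 46149908 in the PP2AcKO libraries and 38735864 to 49344079 in the PP2AcWT libraries. Both libraries numbered 1 stood apart from the others of their groups. Ppp2ca, which encodes the alpha isoform of PP2Ac, was at 217, 187 and 193 CPM (counts scaled to a common depth, with a correction for library composition) in PP2AcKO 1, 2 and 3, against 274, 244 and 247 CPM in PP2AcWT 1, 2 and 3, a log2 fold change of -0.36 (SE 0.08, edgeR adjusted p = 0.00377). Except where DESeq2 is named, every adjusted p comes from the quasi-likelihood test of edgeR. Each was adjusted by Benjamini and Hochberg's method across the tested genes and held to a threshold of 0.05. The Ppp2ca message was lowered and not lost. Of 11 myeloid markers 10 stayed under 1 CPM in every library and Adgre1, C1qa, C1qb and Tyrobp had 0 counts, with a summed level of 4.80 to 5.37 CPM in PP2AcKO and 3.25 to 3.60 CPM in PP2AcWT. Cd68 made up most of both sums, at 4.43 CPM in PP2AcKO and 3.01 CPM in PP2AcWT. Of the rarer markers, Lyz2 had 44 counts in PP2AcKO and 1 in PP2AcWT, while Ptprc had 11 and 31 and Csf1r 10 and 23. The 6 T cell markers summed to at most 0.128 CPM. Glial labels were mixed, with Nes, Sox2 and Pdgfra expressed but Olig2 and Sox10 at 0 counts and Gfap under 1 CPM.

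RefSeq promoters on GRCm38.p6, as 250 bases before to 50 bases after the start of transcription, were at hand for 8 of the 10 genes. Klf5 and Klf10 had no entry in the set used. The promoters of 4 genes are printed. They are Klf4, the most abundant member, Klf3, with the most CACCC boxes, Klf9, without a GC box, and Klf2, the lower member. Klf4, Klf3 and Klf9 were higher in PP2AcKO, and Klf7, level between the groups, is not among those printed. Capitals mark CACCC (the box that KLF proteins bind), GGGCGG (the GC box), TGACGT (the core of a cAMP response element), TATTTAT (part of a MEF2 site) and TGACTCA (an AP-1 site), each on either strand. Neighbouring matches may share bases.
Klf4, chr4:55532426-55532725, minus strand: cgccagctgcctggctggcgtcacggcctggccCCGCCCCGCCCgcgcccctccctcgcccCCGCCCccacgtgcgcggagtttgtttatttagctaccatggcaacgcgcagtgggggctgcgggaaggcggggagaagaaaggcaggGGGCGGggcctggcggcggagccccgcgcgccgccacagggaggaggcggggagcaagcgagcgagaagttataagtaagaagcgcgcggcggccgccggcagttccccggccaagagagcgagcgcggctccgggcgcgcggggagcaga
Klf3, chr5:64803271-64803570, plus strand: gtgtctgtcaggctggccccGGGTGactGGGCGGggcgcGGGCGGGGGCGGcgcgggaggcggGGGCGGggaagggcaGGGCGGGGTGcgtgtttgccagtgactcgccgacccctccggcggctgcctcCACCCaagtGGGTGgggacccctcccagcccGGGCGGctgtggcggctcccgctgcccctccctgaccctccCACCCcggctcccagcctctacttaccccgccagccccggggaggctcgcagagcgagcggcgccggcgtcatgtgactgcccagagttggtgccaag
Klf9, chr19:23140976-23141275, plus strand: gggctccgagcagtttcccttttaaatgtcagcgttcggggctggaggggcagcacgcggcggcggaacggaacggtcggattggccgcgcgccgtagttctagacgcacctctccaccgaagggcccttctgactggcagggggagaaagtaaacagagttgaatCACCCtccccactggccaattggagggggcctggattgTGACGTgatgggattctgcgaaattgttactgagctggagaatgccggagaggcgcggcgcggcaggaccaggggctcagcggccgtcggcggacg
Klf2, chr8:72318812-72319111, plus strand: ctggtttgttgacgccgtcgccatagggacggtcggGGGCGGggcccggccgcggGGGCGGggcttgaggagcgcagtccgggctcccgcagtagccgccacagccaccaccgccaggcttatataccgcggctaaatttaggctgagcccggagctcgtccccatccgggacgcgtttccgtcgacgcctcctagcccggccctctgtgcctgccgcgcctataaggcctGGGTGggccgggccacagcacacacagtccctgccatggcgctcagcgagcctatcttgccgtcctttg

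Most of these promoters were rich in G and C. Their median GC content was 70.6%, against 52.7% over all 32851 promoters of the table. A GC box (GGGCGG) was found in 7 of 8, Klf9 being the exception, against 35.7% of all promoters. The promoters compared were neither limited to tested genes nor matched for GC content, so the shares are not like for like. CACCC was found in 5 of 8, against 57.5% of all, and reached 5 copies in Klf3. TGACGT stood in the Klf9 and Klf13 promoters and in 7.5% of all. TATTTAT and TGACTCA were in 0 of the 8, against 5.6% and 5.2% of all. Only these exact letters were searched, so other forms of a MEF2 or AP-1 site would be missed, and their absence is not shown. The lower member, Klf2, held 2 GC boxes and 1 CACCC, within the range of the higher members with an entry. Their GC boxes ran up to 6 in Klf3. In the longest annotated 3' UTR of each gene, ATTTA, the pentamer of AU-rich elements, was present in 10 of 10, against 84.7% of 8692 tested genes with a UTR in the same length range, with medians of 1.79 copies per kb in the 10 and 1.38 in those genes. The share in the list is thus near that of other genes.

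Levels per length put Klf4 far above the rest. RPKM (CPM divided by the kb of merged exons) averaged 126 ± 8.36 in PP2AcKO and 69.6 ± 4.71 in PP2AcWT (SD, n = 3 each) for Klf4, which stood at the 98.2 percentile in PP2AcKO and the 96.4 percentile in PP2AcWT among 14769 tested genes with a single annotated length. Klf6 followed at 36.0 ± 3.22 RPKM in PP2AcKO and 23.3 ± 1.45 RPKM in PP2AcWT. Klf10 was at 27.2 ± 1.30 RPKM in PP2AcKO and 15.6 ± 0.72 RPKM in PP2AcWT, with Klf9 at 25.8 ± 3.21 and 13.2 ± 0.803 RPKM in the same groups. The lowest was Klf2, at 1.19 ± 0.305 RPKM in PP2AcKO and 2.06 ± 0.531 RPKM in PP2AcWT, where the median gene had 4.62 and 4.56 RPKM. In order of level, the PP2AcKO libraries gave Klf4, Klf6, Klf10, Klf9, Klf3, Klf13, Klf5, Klf7, Klf11 and Klf2, and only Klf10 and Klf9 among neighbours overlapped. PP2AcWT gave the same order except that Klf7 stood above Klf5, and there Klf9 overlapped Klf3 and Klf3 overlapped Klf13. The place of Klf3 in particular depends on the length used: its merged exons span 11243 bases and its longest transcript 5221, and over that transcript it ranked 2 in both groups. Summed over the 10 genes, the level was 275, 274 and 275 RPKM in PP2AcKO 1, 2 and 3, against 157, 164 and 160 RPKM in PP2AcWT 1, 2 and 3. Klf4 alone made up 42.2% to 47.7% of the sum in PP2AcKO and 41.0% to 44.9% in PP2AcWT. These sums and shares are over merged exons and depend on that choice of length. Over the longest transcript Klf3 stood at 38.6 RPKM in PP2AcKO and 25.8 RPKM in PP2AcWT, and Klf4 at 127 and 70.1 RPKM. The larger sum in PP2AcKO was not Klf4 alone, since without it the sums were 143 to 159 RPKM in PP2AcKO and 88.2 to 92.4 RPKM in PP2AcWT.

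**Figure D1:**
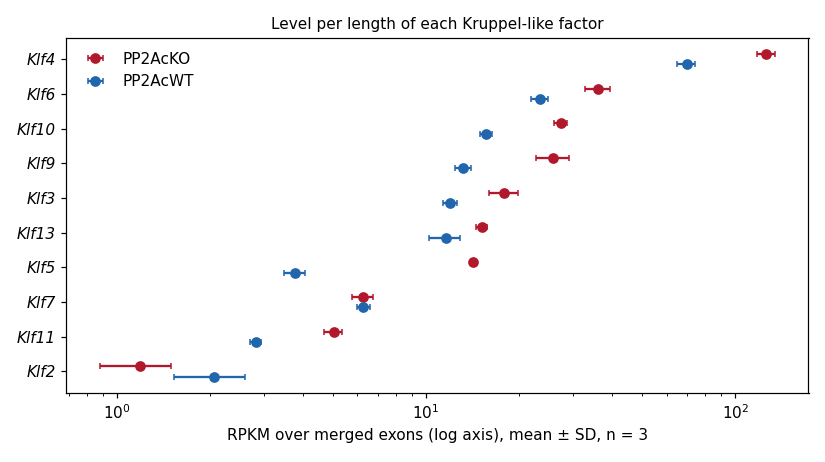
Level of each Kruppel-like factor per length of merged exons, as mean RPKM with SD over 3 libraries on a log axis, PP2AcKO above PP2AcWT in each pair. Klf4 is highest in both groups, Klf7 is level between the groups at about 6.27 and 6.28 RPKM, and Klf2 is the lowest and the only gene with its PP2AcKO mean clearly to the left.

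Of the 10 genes, 8 were past the threshold of the fit over all genes as higher in PP2AcKO, 1 (Klf2) as lower, and Klf7 was not past it. Over all tested genes 64% passed, 31.9% as higher and 32.1% as lower, and nothing is read from the members' count because the symbols were picked on this comparison. Their log2 fold changes had a median of 0.71, beside -0.01 for all tested genes. The groups did not overlap for 9 of the 10, 8 with PP2AcKO above and 1 below, beside 68.3% of all tested genes, 33.9% with PP2AcKO above and 34.4% below. In bulk RNA, fewer cells of a type and less RNA per cell cannot be told apart.

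Klf4 and Klf2 belong to the same subgroup, are both induced by the MEK5-ERK5-MEF2 route in endothelium and are both known as brakes on inflammation there, and Klf4 is also a reprogramming factor. Klf4 (ENSMUSG00000003032.8, chr4:55527143-55532466) had 354, 399 and 399 CPM in PP2AcKO 1, 2 and 3, against 196, 222 and 219 CPM in PP2AcWT 1, 2 and 3. All PP2AcKO libraries lay far above all PP2AcWT libraries, with a log2 fold change of 0.86 (SE 0.08, the standard error of the fit). Gene positions are those of GENCODE M21 on GRCm38. Klf2 (ENSMUSG00000055148.7, chr8:72319033-72321656) had 1.55, 2.51 and 2.53 CPM in PP2AcKO 1, 2 and 3, against 2.702, 4.56 and 4.18 CPM in PP2AcWT 1, 2 and 3. The groups were apart only narrowly, with library 1 the lowest of each, and the log2 fold change was -0.79 (SE 0.24). Between libraries of the same number the log2 ratio of Klf2 was steadier, at -0.81, -0.86 and -0.72. Klf2 rests on 271 counts in PP2AcKO and 505 in PP2AcWT, and it no longer passed the threshold without PP2AcWT 2 (log2 fold change -0.64) or without PP2AcWT 3 (-0.73). The pair thus differed in direction.

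Klf5 showed the widest separation of the list. It encodes a factor of proliferating epithelium and of smooth muscle remodelling, and it counts among the activators of the family. Klf5 (ENSMUSG00000005148.8, chr14:99298691-99315036) had 73.6, 74.4 and 73.6 CPM in PP2AcKO 1, 2 and 3, against 17.9, 20.9 and 19.99 CPM in PP2AcWT 1, 2 and 3. The PP2AcKO libraries were nearly equal to each other, and the message was 3.77-fold higher, a log2 fold change of 1.92 (SE 0.08). In rank of level over merged exons Klf5 stood above Klf7 in PP2AcKO and below it in PP2AcWT. Over the longest transcript Klf5 also stood above Klf13 in PP2AcKO, at 22.0 and 17.8 RPKM, and below it in PP2AcWT, at 5.85 and 13.6 RPKM. Klf6 and Klf7 are, like Klf5, activators, and both are widely expressed. Klf6 (ENSMUSG00000000078.7, chr13:5861482-5870394), a growth-restraining and injury-induced factor, had 174, 151 and 149 CPM in PP2AcKO against 110, 101 and 97.2 CPM in PP2AcWT, a log2 fold change of 0.63 (SE 0.08). Klf7 (ENSMUSG00000025959.13, chr1:64029447-64122282), known from neuronal outgrowth, had 55.6, 48.7 and 48.6 CPM in PP2AcKO against 52.9, 51.9 and 48.4 CPM in PP2AcWT. Its groups overlapped, with means of 51.0 ± 4.04 CPM in PP2AcKO and 51.1 ± 2.38 CPM in PP2AcWT (SD, n = 3 each) and a log2 fold change of -0.003 (SE 0.08). Exons of genes on the opposite strand cover 39.4% of the Klf7 exon bases, and the strand setting of the counting is not known, so its count may include their reads.

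Klf3 recruits the corepressor CtBP and acts mostly as a repressor, in blood and fat among others. Klf3 (ENSMUSG00000029178.14, chr5:64803388-64832901) had 226, 187 and 191 CPM in PP2AcKO against 143, 130 and 132 CPM in PP2AcWT, a log2 fold change of 0.58 (SE 0.09). Library 1 was the highest of both groups, and the groups stayed apart.

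The remaining members bind the Sin3 corepressor complex. Klf10 and Klf11 were described as early genes of TGF-beta, Klf9 as a gene induced by glucocorticoid and thyroid hormone, and Klf9 and Klf10 also as outputs of the circadian clock. Klf9 (ENSMUSG00000033863.2, chr19:23141226-23168134) had 142, 113 and 118 CPM in PP2AcKO 1, 2 and 3, against 67.4, 63.2 and 59.7 CPM in PP2AcWT 1, 2 and 3. Every PP2AcKO library was well above every PP2AcWT library, and the log2 fold change of 0.97 (SE 0.10) was the second in size among the higher members. Klf10 (ENSMUSG00000037465.10, chr15:38291463-38300706) had 120, 109 and 112 CPM in PP2AcKO against 68.8, 63.3 and 63.9 CPM in PP2AcWT, a log2 fold change of 0.80 (SE 0.07). Klf11 (ENSMUSG00000020653.12, chr12:24651274-24662789) had 20.5, 23.4 and 21.7 CPM in PP2AcKO against 11.7, 12.4 and 12.6 CPM in PP2AcWT, a log2 fold change of 0.83 (SE 0.09). Klf10 and Klf11, close relatives, thus had nearly the same ratio at very different levels. Klf13 (ENSMUSG00000052040.10, chr7:63886351-63938915), which drives late expression of the chemokine RANTES in T cells, had 109, 118 and 115 CPM in PP2AcKO against 76.8, 97.2 and 87.6 CPM in PP2AcWT. Its log2 fold change of 0.39 (SE 0.09) was the smallest among the higher members.

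Library 1 departed from libraries 2 and 3 in the same direction in both groups for 9 of the 10 genes, downward for Klf2, Klf4, Klf11 and Klf13 and upward for Klf3, Klf6, Klf7, Klf9 and Klf10. Ratios between libraries of the same number ran from 0.84 to 0.87 for Klf4, from 0.79 to 0.82 for Klf10, from 0.58 to 0.67 for Klf6, from 0.84 to 1.07 for Klf9 and from 1.83 to 2.04 for Klf5, on the log2 scale. For each of the 8 higher genes all 3 numbers gave a ratio above 0, and for Klf2 all 3 gave one below 0. These signs add nothing, because the groups of these genes did not overlap. Any matching of their libraries would give ratios of a single sign.

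**Figure D2:**
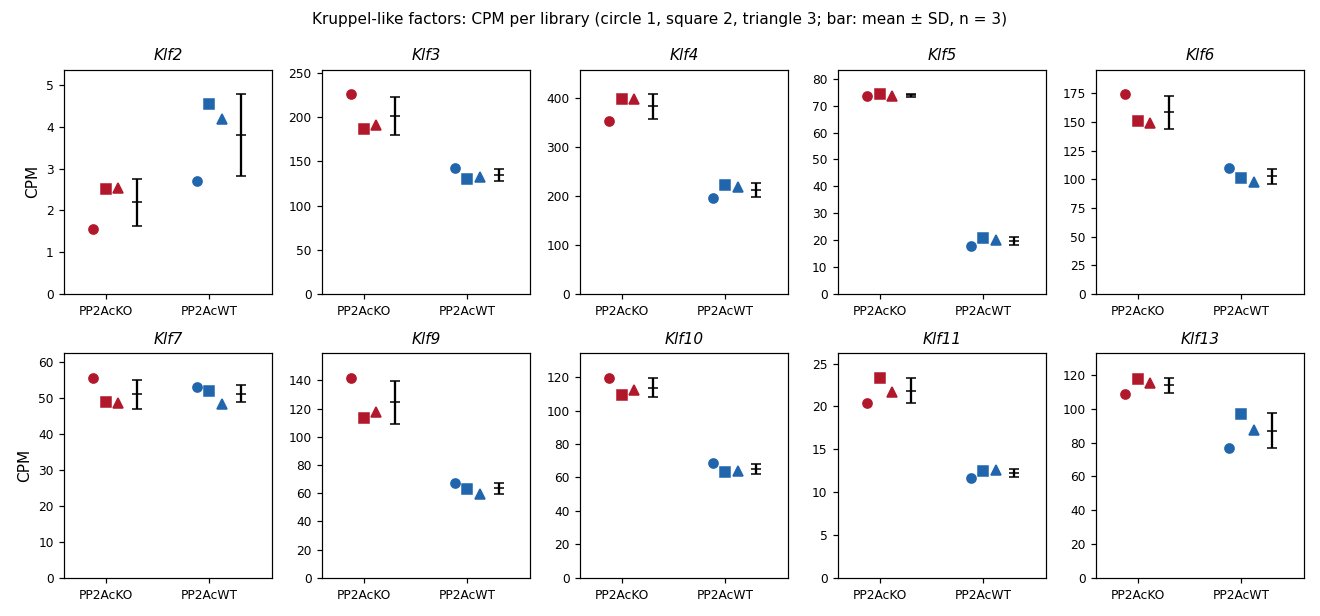
CPM of each Kruppel-like factor in each library, PP2AcKO at the left and PP2AcWT at the right, with circle, square and triangle for libraries 1, 2 and 3 and a bar for mean and SD over 3 libraries. Klf5 has the widest gap as a ratio, 73.6 to 74.4 CPM in PP2AcKO against 17.9 to 20.9 CPM in PP2AcWT, Klf7 overlaps, and Klf2 is lower in PP2AcKO.

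The family has further genes outside the list. Klf15 and Klf12 rose, at low levels. Klf15, a glucocorticoid-responsive factor of metabolism in muscle, liver and fat, had 6.97, 8.74 and 9.33 CPM in PP2AcKO, against 1.43, 0.952 and 1.51 CPM in PP2AcWT (log2 fold change 2.68, SE 0.19, edgeR adjusted p = 2.99e-06). Klf12, a CtBP-binding repressor, had 1.34, 1.02 and 1.25 CPM in PP2AcKO, against 0.196, 0.113 and 0.0755 CPM in PP2AcWT (log2 fold change 3.16, SE 0.32, edgeR adjusted p = 2.85e-05), from 151 counts in PP2AcKO and 18 in PP2AcWT. Klf8, a further CtBP-binding repressor that Klf3 is known to silence in mouse blood cells, had 1.32, 1.29 and 1.33 CPM in PP2AcKO, against 0.862, 0.952 and 0.957 CPM in PP2AcWT. Its log2 fold change of 0.51 (SE 0.16, edgeR adjusted p = 0.0224) lost the call without PP2AcKO 2 (0.0534), PP2AcKO 3 (0.0573), PP2AcWT 1 (0.0731) or PP2AcWT 3 (0.0577), so it is the least secure of the 3. Klf16 had 46.3, 65.9 and 63.3 CPM in PP2AcKO, against 41.9, 61.3 and 54.9 CPM in PP2AcWT, and the groups overlapped (log2 fold change 0.15, SE 0.16, edgeR adjusted p = 0.44). With the replicate number as a block it passed at the same small size (edgeR adjusted p = 0.00312), and likewise without both libraries numbered 1 (0.00699). Klf1, the erythroid factor, had 8 counts in PP2AcKO and 5 in PP2AcWT, Klf17 had 0 in PP2AcKO and 1 in PP2AcWT, and Klf14 had 0 in both. A count of 0 in a group allows up to 3 counts, or 0.0240 CPM in PP2AcKO and 0.0222 CPM in PP2AcWT.

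SP factors, the relatives that bind GC boxes with the same type of zinc fingers, had log2 fold changes from -0.10 to 0.28 in 5 of 6 tested genes. Sp1, the widely expressed GC-box activator, had 171, 147 and 143 CPM in PP2AcKO against 143, 133 and 132 CPM in PP2AcWT (log2 fold change 0.18, SE 0.08, edgeR adjusted p = 0.0854). Sp2, Sp3 and Sp4 had log2 fold changes of 0.18 (SE 0.11), 0.26 (SE 0.12) and 0.28 (SE 0.13), none past the threshold (edgeR adjusted p = 0.193, 0.0849 and 0.0984). With the block all 4 passed, at log2 fold changes of 0.18, 0.18, 0.25 and 0.28 (edgeR adjusted p = 0.00052, 0.00376, 2.32e-05 and 0.00785), and without the block leaving out PP2AcKO 1 let Sp2 pass (0.0213), leaving out PP2AcKO 2 or PP2AcWT 1 let Sp3 pass (0.0343 and 0.0308), and leaving out PP2AcKO 3 let Sp4 pass (0.0368). Without both libraries numbered 1, Sp1, Sp2 and Sp3 passed (0.00178, 0.00265 and 5.06e-05). Sp3 also passed with all libraries and no filter on low counts (0.018). The calls on these small differences thus changed with the setting. Sp5, a Wnt-responsive gene, fell: it had 0, 0.0732 and 0.0511 CPM in PP2AcKO, against 0.255, 0.340 and 0.604 CPM in PP2AcWT, from 5 counts in PP2AcKO and 52 in PP2AcWT (log2 fold change -3.19, SE 0.68, edgeR adjusted p = 0.00278). The size of its fall rests on few counts, with log2 fold changes of -2.58 without PP2AcKO 1 and -3.87 without PP2AcKO 2, both still called. Sp7, the osteoblast factor, had 0.662 ± 0.103 CPM in PP2AcKO and 0.706 ± 0.0572 CPM in PP2AcWT (log2 fold change -0.10, SE 0.22, SD, n = 3 each, edgeR adjusted p = 0.713). Sp8 was too rare to be tested, with 5 counts in PP2AcKO and 28 in PP2AcWT, a ratio of 0.193 (95% counting interval 0.0582 to 0.506). Sp6 had 6 counts in PP2AcKO and 7 in PP2AcWT, and Sp9 had 0 in both groups.

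**Figure D3:**
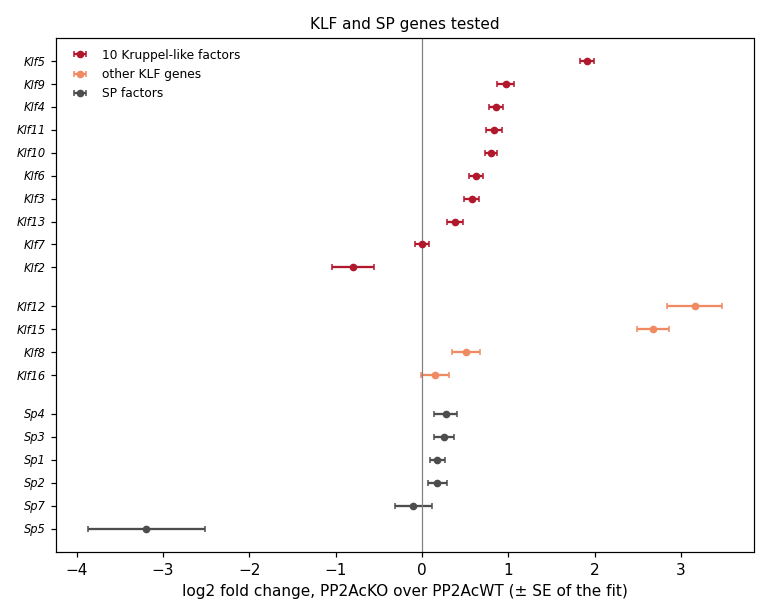
Log2 fold change of PP2AcKO over PP2AcWT, with the SE of the fit over 6 libraries, for the tested KLF and SP genes in 3 blocks. In the list of 10 genes 8 lie right of 0, Klf7 on it and Klf2 left of it at -0.79, Klf12 and Klf15 lie farthest right at 3.16 and 2.68, and 4 of the 6 SP factors lie between 0.18 and 0.28.

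Of 8 genes of the MEK5-ERK5-MEF2 route, the kinase cascade and transcription factors that induce Klf2 and Klf4 in endothelium, 4 rose, 1 fell and 3 did not pass, with a median log2 fold change of 0.28. This count, and that of each list that follows, stands beside 31.9% higher, 32.1% lower and 64% called over all tested genes. Mef2a rose to 109 ± 16.1 CPM in PP2AcKO, against 69.8 ± 7.04 CPM in PP2AcWT (SD, n = 3 each, log2 fold change 0.65, SE 0.12, edgeR adjusted p = 0.000989), and Mef2c had a log2 fold change of 0.50 (SE 0.13, edgeR adjusted p = 0.00791). Mef2d and the kinase gene Map3k3 passed narrowly, at log2 fold changes of 0.29 and -0.20 (edgeR adjusted p = 0.0452 and 0.0311). Mef2d lost the call without PP2AcKO 2, PP2AcKO 3, PP2AcWT 1 or PP2AcWT 3 (highest adjusted p = 0.129), and Map3k3 without any 1 of the 3 PP2AcKO libraries, PP2AcWT 2 or PP2AcWT 3 (highest adjusted p = 0.118).

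Among 9 corepressors and coactivators of KLF proteins 4 rose, 2 fell and 3 did not pass, with a median log2 fold change of -0.12. Crebbp and Ep300, genes of acetyltransferases, rose, with 246 ± 13.7 and 223 ± 3.51 CPM in PP2AcKO, against 161 ± 16.0 and 167 ± 10.7 CPM in PP2AcWT (log2 fold changes 0.61 and 0.42, edgeR adjusted p = 0.000249 and 0.000636). Kat2b, a further acetyltransferase gene, fell by 0.49 on the log2 scale (SE 0.09, edgeR adjusted p = 0.00121). Ctbp2, a corepressor that Klf3, Klf8 and Klf12 bind, had a log2 fold change of 0.31 (SE 0.06, edgeR adjusted p = 0.00253). Ctbp1, the other CtBP gene of the list, named here after its value was seen, went the other way. It had 156 ± 18.7 CPM in PP2AcKO, against 224 ± 28.2 CPM in PP2AcWT (log2 fold change -0.52, SE 0.12, edgeR adjusted p = 0.00385). Ctbp1 was not followed singly under the alternatives. Of 6 ubiquitin ligases that act on KLF proteins, 2 rose, 0 fell and 4 did not pass. The 2 were Vhl, described to act on Klf4, and Smurf1, described to act on Klf2, both with a log2 fold change of 0.53 (edgeR adjusted p = 0.000476 and 0.000873).

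Genes described in other tissues as targets moved both ways. Of 14 genes described as switched on by a KLF factor 10 were tested, of which 4 rose, 2 fell and 4 did not pass, with a median log2 fold change of 0.15. Thbd, the thrombomodulin gene and a textbook target of Klf2 and Klf4 in endothelium, had 223, 228 and 233 CPM in PP2AcKO, against 26.3, 29.4 and 27.7 CPM in PP2AcWT (log2 fold change 3.04, SE 0.07, edgeR adjusted p = 8.96e-09). The PP2AcKO libraries were about 8.20-fold higher with little spread. Endothelial markers were led by Cdh5, at 435 CPM in PP2AcKO and 415 CPM in PP2AcWT, with Cldn5 at 0 counts. Pecam1 was at 0.344 CPM in PP2AcKO and 0.282 CPM in PP2AcWT. In the same groups Tie1 had 1 and 0 counts, and Emcn had 1 and 17. Of the same list Vwf and Kdr rose, with log2 fold changes of 3.12 and 2.23 (edgeR adjusted p = 4.24e-07 and 2.33e-06), and Tek fell by 2.23 on the log2 scale (edgeR adjusted p = 5.49e-05). The part of endothelial cells in the Thbd level was not tested. Cdkn1a, the p21 cell cycle inhibitor that Klf4 and Klf6 are known to activate, and Tgfb1 had log2 fold changes of 3.11 and 1.15 (SE 0.08 and 0.09, edgeR adjusted p = 1.09e-08 and 6.04e-06). S1pr1, a Klf2 target in T cells, fell by 0.37 on the log2 scale (SE 0.07, edgeR adjusted p = 0.00101). Nos3, a Klf2 target named here after its value was seen, was at 0.270 CPM in PP2AcKO and 0.199 CPM in PP2AcWT.

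Of 11 genes described as repressed by a KLF factor 5 rose, 4 fell and 2 did not pass, with a median log2 fold change of 0.04. Acta2 and Tagln, smooth muscle genes that Klf4 represses, fell to 6.84 ± 0.373 and 0.564 ± 0.0942 CPM in PP2AcKO, against 338 ± 11.4 and 45.6 ± 2.22 CPM in PP2AcWT (log2 fold changes -5.63 and -6.33, edgeR adjusted p = 7.86e-10 and 3.43e-09). Mural cell markers summed to 1.37 to 1.61 CPM in PP2AcKO and 12.1 to 14.3 CPM in PP2AcWT, and Cspg4 and Rgs5 made up most of the PP2AcWT sum. On the same list Myh11, the smooth muscle myosin gene, rose at a low level, to 0.408 CPM in PP2AcKO against 0.138 CPM in PP2AcWT (log2 fold change 1.59, SE 0.46, edgeR adjusted p = 0.0134), and Des had 16 counts in PP2AcKO and 0 in PP2AcWT. The part of such cells in the falls of Acta2 and Tagln was not tested. Edn1, the endothelin gene, fell by 2.17 on the log2 scale (SE 0.14, edgeR adjusted p = 1.73e-06). Odc1, the ornithine decarboxylase gene, which Klf4 represses in colon cells, rose to 2286 ± 82.0 CPM in PP2AcKO, against 304 ± 5.69 CPM in PP2AcWT (log2 fold change 2.91, SE 0.07, edgeR adjusted p = 7.03e-09). The list as a whole thus had no common direction.

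Genes that share an inducer with members of the family were compared next. Of 11 TGF-beta early genes, the class from which Klf10 and Klf11 were first named, 7 rose, 3 fell and 1 did not pass, with a median log2 fold change of 0.54. Tgif1, a corepressor of SMAD proteins, rose to 369 ± 12.7 CPM in PP2AcKO, against 131 ± 6.73 CPM in PP2AcWT (log2 fold change 1.496, SE 0.07, edgeR adjusted p = 2.24e-07). Id2 and Tgfbi fell by 1.52 and 1.36 on the log2 scale (edgeR adjusted p = 2.43e-05 and 4.36e-05). Among 12 tested glucocorticoid-induced genes, the class of Klf9 and Klf15, 9 rose, 2 fell and 1 did not pass, with a median log2 fold change of 1.16. Mt2, a metallothionein gene, had 298, 349 and 315 CPM in PP2AcKO, against 21.3, 18.3 and 18.9 CPM in PP2AcWT (log2 fold change 4.04, SE 0.10, edgeR adjusted p = 8.96e-09). Cebpd, Angptl4 and Errfi1 had log2 fold changes of 3.38, 1.65 and 1.32 (edgeR adjusted p = 1.82e-07, 2e-07 and 2.72e-07). Fkbp5, a standard glucocorticoid target named here after its value was seen, was lower, at 19.7 ± 0.586 CPM in PP2AcKO against 38.8 ± 1.25 CPM in PP2AcWT (edgeR adjusted p = 4.32e-06), so the class was not uniform.

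Klf9 and Klf10 are known to follow the circadian clock. Of its own genes 13 rose and 3 fell, out of 17 tested, and 1 did not pass, beside 31.9% higher and 32.1% lower over all tested genes, with a median log2 fold change of 0.996. Rora, a nuclear receptor gene, had 59.2, 52.4 and 51.6 CPM in PP2AcKO, against 10.8, 10.1 and 9.57 CPM in PP2AcWT (log2 fold change 2.42, SE 0.09, edgeR adjusted p = 7.87e-08). Arntl, which encodes BMAL1, had 138, 128 and 129 CPM in PP2AcKO, against 68.3, 63.3 and 61.3 CPM in PP2AcWT (log2 fold change 1.03, SE 0.07, edgeR adjusted p = 2.69e-06). Nfil3 and Ciart, both repressors, had log2 fold changes of 1.61 and 2.08 (edgeR adjusted p = 2e-07 and 1.74e-06). The 3 that fell, named after their values were seen, were the output activators Dbp and Tef and the period gene Per2, at log2 fold changes of -2.14, -0.84 and -1.01 (edgeR adjusted p = 6.33e-06, 1.37e-05 and 0.000686). Clock itself lost its call without PP2AcWT 3 (adjusted p = 0.0533), and Per3, not past the threshold (adjusted p = 0.0553), passed without PP2AcWT 1 or PP2AcWT 3 (0.0398 and 0.0442) and with the block (0.00771). The labels carry no clock time.

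**Figure D4:**
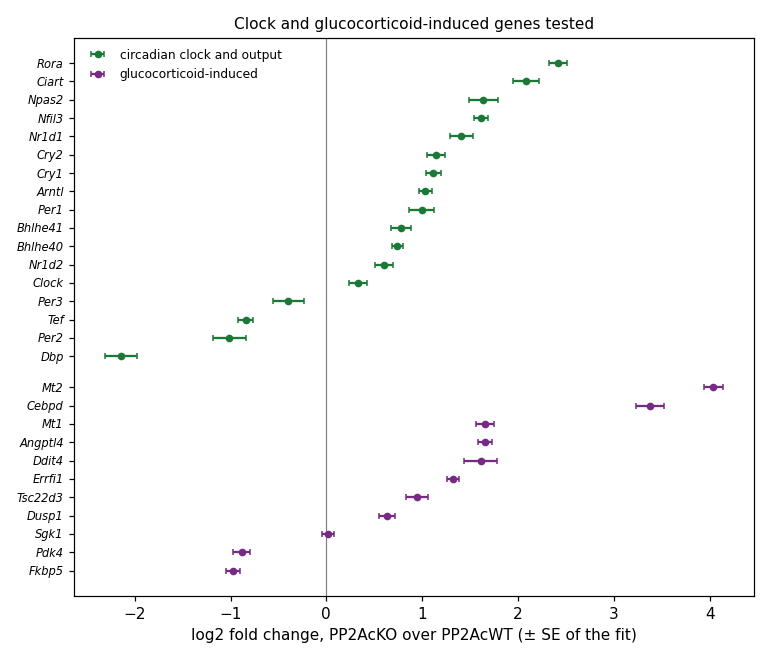
Log2 fold change of PP2AcKO over PP2AcWT, with the SE of the fit over 6 libraries, for tested clock genes and, below them, glucocorticoid-induced genes (Per1, on both lists, is drawn once). Rora leads the clock genes at 2.42 and Dbp ends them at -2.14, and Mt2 leads the glucocorticoid-induced genes at 4.04, with Fkbp5 and Pdk4 left of 0.

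Klf2, Klf4 and Klf5 are also part of the naive pluripotency network, and Klf5, Klf9 and Klf15 of fat cell formation. Of 11 pluripotency factors 5 were tested, 3 rising and 2 falling. Pou5f1, Lin28a and Zfp42 had 0 counts in all 6 libraries. Sox2, also a glial stem cell gene, fell to 78.4 ± 4.39 CPM in PP2AcKO, against 116 ± 1.84 CPM in PP2AcWT (log2 fold change -0.57, SE 0.07, edgeR adjusted p = 8.16e-05), while Nanog, Esrrb and Tfcp2l1 passed the test at levels under 1 CPM. Of 8 adipocyte genes 5 were tested, 4 rising and 1 falling. Cebpb and Cebpd, the early C/EBP factors, had 440 ± 69.9 and 319 ± 52.2 CPM in PP2AcKO, against 70.7 ± 13.5 and 30.7 ± 4.04 CPM in PP2AcWT (log2 fold changes 2.64 and 3.38, edgeR adjusted p = 1.56e-06 and 1.82e-07). Fabp4, a fatty acid binding protein gene, rose to 3.58 ± 0.513 CPM in PP2AcKO, against 0.118 ± 0.0558 CPM in PP2AcWT, whereas Pparg, the master regulator of fat cells, fell to 2.11 ± 0.147 CPM in PP2AcKO, against 4.35 ± 0.251 CPM in PP2AcWT (edgeR adjusted p = 7.67e-07 and 7.92e-05).

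Over the 6 libraries, the tested genes whose pattern lay closest to that of Klf5 were Vegfa, Sox9 and Tbc1d9, at Euclidean distances of 0.097, 0.102 and 0.114 in centred log2 CPM. Their log2 fold changes were 1.87, 1.94 and 1.95, beside 1.92 for Klf5. Among the genes closest to Klf2 were Ints1 and Srf, at distances of 0.230 and 0.242 and log2 fold changes of -0.85 and -0.68, beside -0.79 for Klf2. With only 2 groups such likeness mostly restates the fold change and the offset of library 1.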

How the data were processed

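RNA was measured in 3 PP2AcKO and 3 PP2AcWT libraries. The authors deposited unnormalized whole-number counts by symbol, whose columns match the sample titles, with 0 columns of other samples. Per the submitters' processing notes, the tools, whose roles are not stated, include HTSeq 0.11.2, STAR 2.7.1a and fastp 0.20.0, and also limma 3.48.3 and edgeR 3.34.0. The same notes name mm10 and GRCm38. The annotation release is not given in the sources used here, nor is the strand setting, so antisense reads cannot be told apart.

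Genes were kept by filterByExpr, scaled by TMM and compared with the quasi-likelihood test of edgeR 4.0.16 (R 4.3.3), with Benjamini-Hochberg adjustment over all 14877 tested genes and a threshold of 0.05. The procedure was tested on simulated data. CPM use TMM-scaled library sizes, and RPKM divide them by merged exon length in GENCODE M21 (GRCm38), whose symbols need not match the authors' annotation. SEs are the fold change over the root of F. Totals of 38735864 to 49344079 counts set the precision, and counting intervals and floors of 3 counts cover counting error only, since the labels name no molecular identifiers.

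The members and gene lists were chosen with earlier results of these data known. Named are the listed KLF genes, all other KLF and SP genes, Ppp2ca, up to 4 genes per list with the smallest adjusted p (fewer where fewer passed), and the 3 nearest genes in pattern to the highest and the lowest member. Some genes stand on several lists. Klf18 was not analysed here, and a few genes that the rule names are not reported here. Deviations of libraries with the same number correlated across genes at 0.44, 0.16 and 0.15, although PP2AcKO 2 and PP2AcWT 3 did so at 0.19, and the number was used as a block in an alternative. No 2 replicates agreed within sampling noise (chi-square per degree of freedom 3.41 and 4.61 between libraries 2 and 3, and 29.71 to 48.41 with library 1). Alternatives were other scalings, filters, DESeq2 1.42.0, limma-voom, a fold change threshold, and libraries left out. The outlier check for groups of 4 or more samples could not be used on groups of 3.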

Additional observations from a re-analysis of the deposited data

How the results depend on the processing

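The tests were repeated under 15 alternatives, except that the filter at 1 CPM left out Klf12, Sp5, Sp7, Nanog, Esrrb, Tfcp2l1, Myh11, Snap25 and Pecam1. Over the member fold changes 137 of 150 alternative values kept direction and side of the threshold. Klf5 ran from 1.85 to 1.97, Klf4 from 0.79 to 0.92 and Klf9 from 0.88 to 1.04, and Klf2 from -0.999 to -0.57. Against a fold change of 1.5 the genes called fell to 3966 from 9525 overall and to 55 from 85 in the lists, since that test asks for more. That test also ended the calls of Klf2, Klf3, Klf6 and Klf13. Leaving out 1 library, or both numbered 1, gave 8457 to 11123 calls overall and 83 to 100 in the lists. The replicate block gave 11495 calls overall and 102 in the lists, and beside Klf16, Sp1, Sp2, Sp3, Sp4 and Per3 it changed no other call among the named genes. Klf7, at -0.003, turned positive with DESeq2 size factors (0.008), without a filter (0.002), with the DESeq2 test (0.008) and without single libraries (-0.059 to 0.038), and Sp7, at -0.10, without PP2AcKO 1, in a range of -0.207 to 0.026 without single libraries. RPKM moved by more than the replicate SD for 11 of 20 values over the longest transcript, most for Klf3 (38.6 in PP2AcKO and 25.8 in PP2AcWT). Klf8 also lost its call with DESeq2 (0.0588), without a filter (0.0616) and without both libraries numbered 1 (0.096), where Cdh5 passed (0.0454). Without a filter Sp3 (0.018) and Per3 (0.0381) passed and Map3k3 (0.0793) did not, and upper-quartile scaling let Per3 pass (0.0311) and ended the call of Mef2d (0.103). The cause was not tested. Upper-quartile scaling moved the median of all genes to -0.072, with the same members called. Genes under about 1 CPM, Klf12 in PP2AcWT and Sp5 among them, rest on few counts.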

Other observations

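Markers of endothelium, the tissue in which Klf2 and Klf4 are best known, did not move together in these libraries. Cdh5, the VE-cadherin gene, was abundant in both groups, at 435 ± 21.4 CPM in PP2AcKO and 415 ± 17.1 CPM in PP2AcWT (SD, n = 3 each, log2 fold change 0.07, SE 0.07, edgeR adjusted p = 0.399), and passed at the same small size without both libraries numbered 1 (log2 fold change 0.08, edgeR adjusted p = 0.0454). Pecam1 was at 0.344 ± 0.0425 CPM in PP2AcKO and 0.282 ± 0.0933 CPM in PP2AcWT, Cldn5 had 0 counts in all 6 libraries, and Tie1 had 1 count in PP2AcKO and 0 in PP2AcWT. Emcn had 1 count in PP2AcKO and 17 in PP2AcWT. Vwf rose to 5.69 ± 0.382 CPM in PP2AcKO, against 0.650 ± 0.112 CPM in PP2AcWT, and Kdr to 7.78 ± 0.402 CPM, against 1.65 ± 0.331 CPM (edgeR adjusted p = 4.24e-07 and 2.33e-06). Tek fell to 0.295 ± 0.0360 CPM in PP2AcKO, against 1.40 ± 0.266 CPM in PP2AcWT (edgeR adjusted p = 5.49e-05). Over the 8 markers the summed level was 424 to 462 CPM in PP2AcKO and 400 to 431 CPM in PP2AcWT, almost all of it Cdh5, and its part in the KLF levels was not tested.

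Of 6 mural cell markers 1, Myh11, rose, 3 fell and 2 were too rare to be tested. Cspg4, also a gene of glial progenitors, fell to 0.127 ± 0.0277 CPM in PP2AcKO, against 8.66 ± 1.35 CPM in PP2AcWT (edgeR adjusted p = 7.92e-08). Neuronal markers summed to 11.0 to 15.1 CPM in PP2AcKO and 12.3 to 14.5 CPM in PP2AcWT, most of it Tubb3. Tubb3 and Syt1 did not pass the threshold. Snap25 fell to 0.142 CPM in PP2AcKO, against 1.325 CPM in PP2AcWT (log2 fold change -3.17, edgeR adjusted p = 4.69e-05). Gad1, too rare to be tested, had 56 counts in PP2AcKO and 1 in PP2AcWT. Epithelial markers summed to at most 0.0896 CPM in PP2AcKO and 0.658 CPM in PP2AcWT, with Krt5, Krt14 and Cldn7 at 0 counts.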
